A study of Mus musculus with 6 samples.

Results

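Transcription factors that build and maintain the myeloid lineage were followed in bone marrow-derived macrophages (BMDMs), the macrophages that mouse marrow gives when it is cultured in a growth factor-conditioned medium. The members are 45 genes picked by symbol, 11 factors of the macrophage lineage, 8 of haematopoietic progenitors, 9 that many blood lineages share, 4 of granulocytes, lymphocytes and dendritic cells, 7 interferon regulatory factors (IRFs) outside the macrophage lineage group, and 6 ligand-activated, rhythmic or stress factors, of 40481 genes in the count table. RNA was sequenced from unstimulated BMDMs of 3 wild-type samples and 3 Scd2-m/-m samples, 1 poly(A)-selected library each. Scd2-m/-m cells came from mice with floxed *Scd2* alleles and the lysozyme M-Cre transgene, whose lysozyme M promoter acts in monocytes, macrophages and granulocytes, and *Scd2* encodes a stearoyl-CoA desaturase that makes monounsaturated fatty acids. Neither the labels nor the methods say whether the wild-type mice carried the floxed alleles or the Cre. Mice of both sexes, 2 to 5 months old, were used in the study, marrow was differentiated for 5 to 6 days, and RNA integrity numbers were at least 9.3, but the labels give no sex, day, batch or animal for a library. The p-values therefore measure the spread between these samples, which may be technical.

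Macrophage identity rests on PU.1, the product of *Spi1*, which opens enhancers together with the C/EBP factors and with IRF8, and it is refined by factors such as KLF4 and MAF. Factors such as MYB, GATA2, ERG, MEIS1 and the HOXA proteins keep haematopoietic progenitors immature and are turned down as cells mature. Factors such as RUNX1, FLI1 and IKZF1 act on both sides of this step.

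Of the 45 members, 40 passed edgeR's filter on low counts and were tested. 18 of these 40 (45%) differed between the genotypes at an FDR below 0.05 in edgeR's quasi-likelihood test, after Benjamini-Hochberg adjustment over all 14778 genes tested, where 17.5% of all genes tested passed. Such genes are said here to have risen or fallen in Scd2-m/-m BMDMs. 5 members rose, where 9.65% of all genes rose, and 13 fell, where 7.84% of all genes fell. The libraries of the genotypes did not overlap in 24 of the 40 members, against 34.8% of all genes tested. The median log2 fold change, Scd2-m/-m over wild type, was −0.13 over the 40 members and 0.0039 over all genes tested. Members with a mean of at least 10 CPM, counts scaled to a common library size, numbered 29, of which 13 fell and 3 rose. Among all 8192 genes tested at that level, 21.4% differed, 11.7% lower and 9.72% higher. In bulk samples such as these, fewer cells that express a gene and less RNA of it per cell cannot be told apart. The plot of levels by library shows all 45 members, and the spread between replicates was small for most of them, with a median coefficient of variation of 7.35% in wild-type libraries and of 5.87% in Scd2-m/-m libraries over the tested members.

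**Figure D1:**
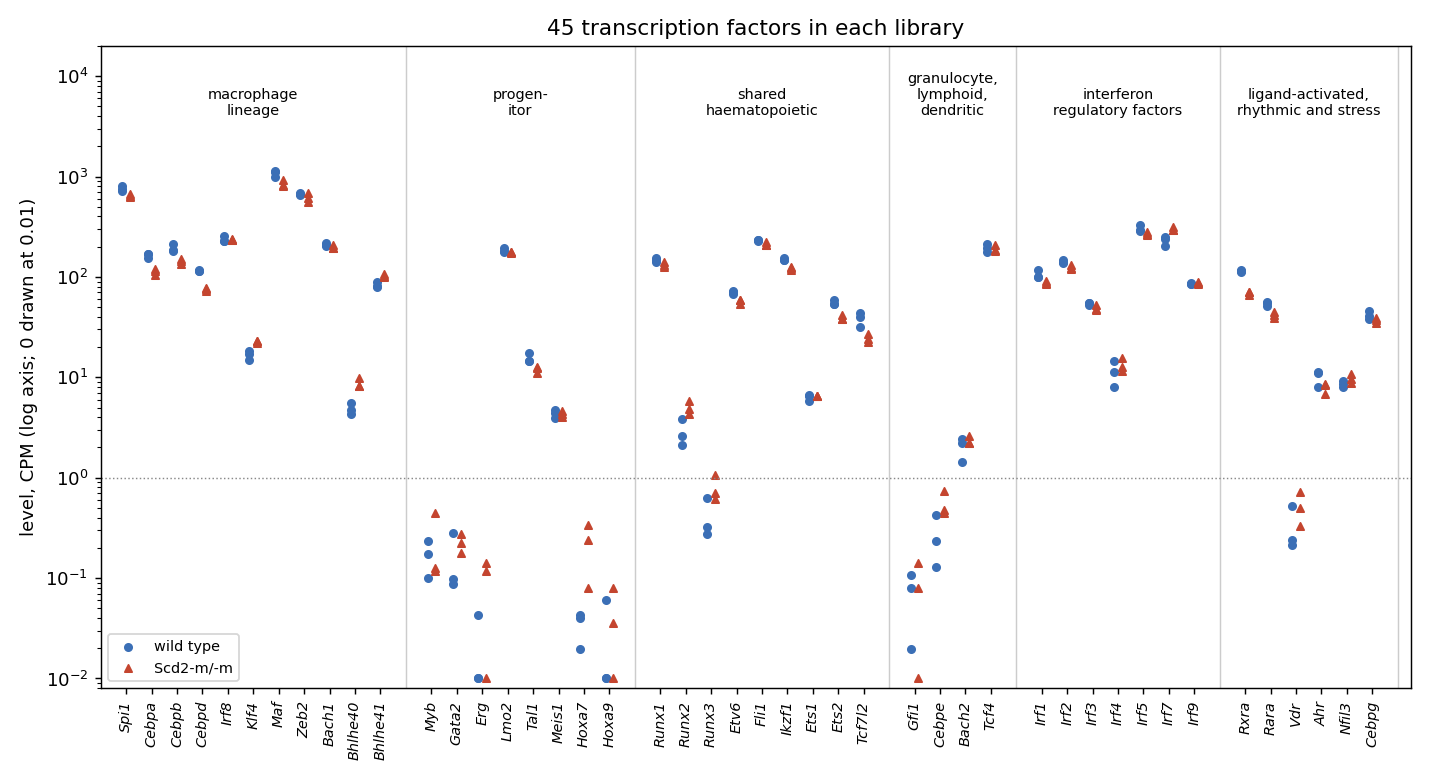
Level of each of the 45 members in each library, in CPM on a log axis with a listed 0 drawn at 0.01, grouped by role; circles are the 3 wild-type and triangles the 3 Scd2-m/-m libraries. All 11 macrophage lineage factors lay above 1 CPM (dotted line) in every library, while *Myb*, *Gata2*, *Erg*, *Hoxa7* and *Hoxa9* lay below it.

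The libraries held between 46285176 and 57629638 counts on genes, and the ranges of the genotypes overlapped. The targeted gene, *Scd2*, had 66.9, 77.7 and 62.7 CPM in the wild-type libraries, in the order of their replicate numbers as throughout, against 59.5, 37.9 and 39.8 CPM in the Scd2-m/-m libraries. The Scd2-m/-m libraries were the lower ones without overlap, but *Scd2* did not pass the test (log2 fold change −0.59, standard error 0.19, edgeR FDR = 0.10). The counts cover the whole gene and do not separate the deleted part. *Lyz2*, the lysozyme M gene whose promoter drives the Cre, fell from between 22100 and 23200 CPM to between 8660 and 9370 CPM (log2 fold change −1.33, edgeR FDR = 6.42e-08).

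The macrophage lineage factors were all expressed, and 5 of the 11 fell while 3 rose and 3 did not pass the test. Their median log2 fold change was −0.12, and without Scd2-m/-m replicate 1 it was −0.0593, without Scd2-m/-m replicate 3 −0.20. Summed over the 11 genes, the level was between 3490 and 3560 CPM in the wild-type libraries against between 2930 and 3130 CPM in Scd2-m/-m libraries, which did not overlap. Per kilobase of exon the wild-type levels ran from 281 CPM for *Spi1* through 131 for *Maf* and 129 for *Cebpb* to 1.04 for *Bhlhe40*.

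The C/EBP factors, leucine zipper proteins that open myeloid enhancers with PU.1, fell in their alpha, beta and delta members. *Cebpa* (ENSMUSG00000034957, chr7:35119293-35121928, GRCm38, plus strand), which starts myeloid commitment, had 170, 153 and 168 CPM in the wild-type and 119, 115 and 105 CPM in the Scd2-m/-m libraries. *Cebpb* (ENSMUSG00000056501, chr2:167688915-167690418, plus strand), which acts in mature and activated macrophages, had 212, 187 and 182 CPM in wild-type against 152, 144 and 134 CPM in Scd2-m/-m libraries. *Cebpd* (ENSMUSG00000071637, chr16:15887286-15891031, plus strand), an inflammation-responsive member, had 114, 115 and 118 CPM against 77.9, 75.1 and 72.2 CPM. In each of the 3 genes the highest Scd2-m/-m library lay below the lowest wild-type library. The log2 fold change was −0.54 for *Cebpa* (standard error 0.067, edgeR FDR = 8.76e-05), −0.43 for *Cebpb* (standard error 0.070, edgeR FDR = 0.000776) and −0.62 for *Cebpd* (standard error 0.058, edgeR FDR = 6.68e-06). *Cebpb* shares 312 exonic bases, 20.7% of its exonic length, with *Tmem189* on the opposite strand, which rose (log2 fold change 0.23, edgeR FDR = 0.0494), and *Cebpd* shares 15% with *Spidr* (−0.0562, edgeR FDR = 0.687). The sources used here do not say whether counting used strand, so reads of these stretches may belong to either gene. Of the C/EBP members placed in other groups, *Cebpg*, a C/EBP without a full activation domain, had 45.6, 41.2 and 38.5 CPM in wild-type against 34.4, 37 and 38.9 CPM in Scd2-m/-m libraries and overlapped, and *Cebpe* is described with the granulocyte factors.

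*Spi1* (ENSMUSG00000002111, chr2:91082390-91115756, plus strand) had 811, 751 and 711 CPM in wild-type against 677, 637 and 628 CPM in Scd2-m/-m libraries, which did not overlap. It fell to 85.5% of the wild-type mean (log2 fold change −0.23, standard error 0.067, edgeR FDR = 0.0323). This call was lost without wild-type replicate 1 (log2 fold change −0.18, edgeR FDR = 0.0946), without wild-type replicate 2 (−0.23, FDR = 0.110), without Scd2-m/-m replicate 2 (−0.21, FDR = 0.153) and without Scd2-m/-m replicate 3 (−0.205, FDR = 0.0890), with the direction kept in all 4. *Irf8*, the partner of PU.1 in monocyte commitment, had 227, 230 and 255 CPM in wild-type against 232, 232 and 241 CPM in Scd2-m/-m libraries. The Scd2-m/-m libraries of *Irf8* lay inside the wild-type range (log2 fold change −0.0125, standard error 0.062, edgeR FDR = 0.920).

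*Maf*, which encodes c-MAF, a leucine zipper factor of mature resident-type macrophages, had 984, 1110 and 1140 CPM in wild-type against 798, 816 and 928 CPM in Scd2-m/-m libraries. It fell (log2 fold change −0.35, standard error 0.078, edgeR FDR = 0.00686), and without Scd2-m/-m replicate 2 the call was lost (−0.32, edgeR FDR = 0.0594). *Zeb2*, a zinc finger repressor that maintains macrophage identity, had 658, 688 and 664 CPM in wild-type against 554, 609 and 681 CPM in Scd2-m/-m libraries. Scd2-m/-m replicate 3 of *Zeb2* reached into the wild-type range, and the gene did not pass the test (log2 fold change −0.12, standard error 0.074, edgeR FDR = 0.283). *Bach1*, a heme-sensing repressor, had 202, 209 and 219 CPM against 192, 194 and 208 CPM and overlapped (log2 fold change −0.0818, edgeR FDR = 0.392).

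The 3 macrophage lineage factors that rose were *Klf4* and both *Bhlhe* genes. *Klf4* (ENSMUSG00000003032, chr4:55527143-55532466, minus strand), a zinc finger factor of monocyte differentiation, had 18.1, 14.9 and 17 CPM in wild-type against 23, 23 and 22 CPM in Scd2-m/-m libraries. *Bhlhe40* (ENSMUSG00000030103, chr6:108660629-108666925, plus strand), a basic helix-loop-helix repressor that acts in macrophage activation and proliferation, had 4.69, 4.36 and 5.61 CPM against 8.27, 9.8 and 8.12 CPM. Its paralog *Bhlhe41* (ENSMUSG00000030256, chr6:145858243-145865558, minus strand) had 89.3, 79.5 and 81.2 CPM against 99.6, 103 and 106 CPM. All Scd2-m/-m libraries of these 3 genes were above all wild-type libraries. The log2 fold change was 0.44 for *Klf4* (standard error 0.082, edgeR FDR = 0.00206), 0.83 for *Bhlhe40* (standard error 0.13, edgeR FDR = 0.000479) and 0.30 for *Bhlhe41* (standard error 0.062, edgeR FDR = 0.00413). The plot of 10 members by replicate sets these rises beside the C/EBP falls.

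**Figure D2:**
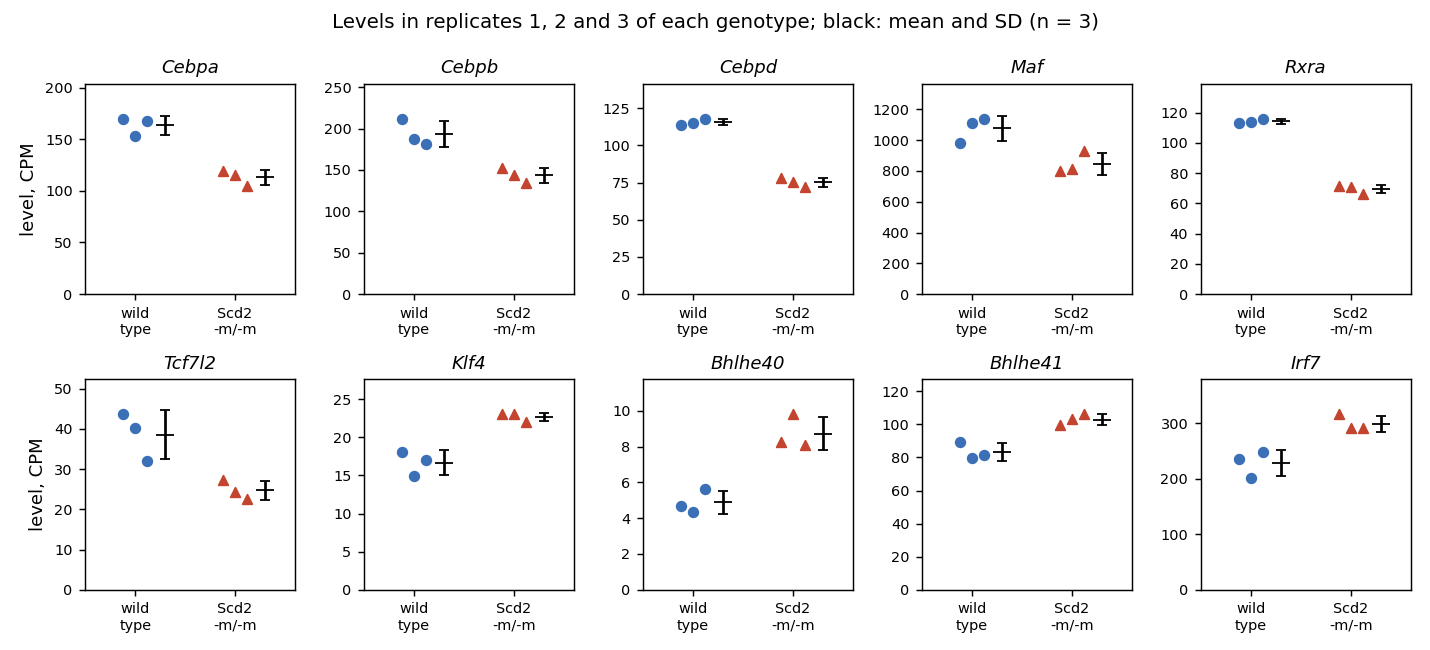
Levels in CPM, on linear axes from 0, of 10 members in replicates 1, 2 and 3 of each genotype (circles wild type, triangles Scd2-m/-m), with the mean and SD (n = 3) in black. *Cebpa*, *Cebpb*, *Cebpd*, *Maf*, *Rxra* and *Tcf7l2* lay lower and *Klf4*, *Bhlhe40*, *Bhlhe41* and *Irf7* higher in every Scd2-m/-m library than in any wild-type library.

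Of the 8 progenitor factors, 4 were tested, 1 fell and 3 did not pass the test, and the median log2 fold change of the 4 was −0.0406. With no filter on low counts the median of all 8 was 0.49, of the other sign, against 0.0193 over all genes in that fit. Of the 8, 5 lay above 0, 4 of them the factors that did not pass the filter. The direction of the group therefore turns on how its sparsest members are treated. Over the members tested in each fit without 1 library, between 4 and 6 in number, the median was lowest at −0.0545, when Scd2-m/-m replicate 1 was left out, and highest at 0.1983, when Scd2-m/-m replicate 2 was. Per kilobase of exon the wild-type levels of the 8 ran from 85.6 CPM for *Lmo2* through 3.56 for *Tal1* and 0.413 for *Meis1* to 0.00361 for *Hoxa9*.

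*Lmo2*, the LIM-domain bridge of the stem cell transcription complex, had 178, 183 and 196 CPM in wild-type against 172, 178 and 179 CPM in Scd2-m/-m libraries. The genotypes overlapped for *Lmo2* (log2 fold change −0.0721, standard error 0.059, edgeR FDR = 0.447). *Tal1* (ENSMUSG00000028717, chr4:115056426-115071755, plus strand), the basic helix-loop-helix factor of the same complex, had 14.7, 17.6 and 14.4 CPM in wild-type against 12.5, 11 and 12.6 CPM in Scd2-m/-m libraries. It fell without overlap (log2 fold change −0.37, standard error 0.099, edgeR FDR = 0.0182). The call was lost without wild-type replicate 2 (log2 fold change −0.28, edgeR FDR = 0.124) and without Scd2-m/-m replicate 2 (−0.31, edgeR FDR = 0.108).

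*Meis1*, a homeobox cofactor of the HOXA proteins, had 3.93, 4.68 and 4.44 CPM in wild-type against 4.6, 4.06 and 4.3 CPM in Scd2-m/-m libraries and overlapped (log2 fold change −0.0091, standard error 0.13, edgeR FDR = 0.976). *Gata2*, a zinc finger factor of stem and mast cells, had 14, 4 and 5 counts in wild-type against 10, 14 and 13 counts in Scd2-m/-m libraries. Its log2 fold change of 0.52 had a standard error of 0.55 (edgeR FDR = 0.570), and a difference was not detectable at this depth.

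The other 4 progenitor factors did not pass the filter on low counts. *Myb*, the factor of proliferating progenitors, had 5, 8 and 12 counts in wild-type against 7, 6 and 26 counts in Scd2-m/-m libraries. *Erg*, an ETS factor of stem cells, had 0, 2 and 0 counts against 8, 6 and 0 counts, and *Hoxa9*, a homeobox factor of immature cells, had 3, 0 and 0 counts against 2, 4 and 0 counts. The libraries of both genotypes overlapped in these 3 genes, and a count of 0 allows up to 3 counts. *Hoxa7*, the neighbour of *Hoxa9* on chromosome 6 (chr6:52214491-52221854, minus strand), had 2, 2 and 1 counts in wild-type against 19, 4 and 14 counts in Scd2-m/-m libraries. All Scd2-m/-m libraries of *Hoxa7* lay above the wild-type libraries, and with no filter on low counts it passed the test (log2 fold change 2.62, standard error 0.89, edgeR FDR = 0.0323). It also passed the filter and the test without Scd2-m/-m replicate 2 (3.00, edgeR FDR = 0.0208), and passed the filter but not the test without wild-type replicate 1, 2 or 3 (edgeR FDR = 0.0601, 0.0816 and 0.0891). It shares 20.4% of its exonic length with the antisense gene *Hoxaas3*, which had a mean of 0.315 CPM in wild-type against 0.312 CPM in Scd2-m/-m BMDMs.

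Set side by side, 8 of 11 tested macrophage lineage factors (72.7%) and 1 of 4 tested progenitor factors (25%), of 8, differed between the genotypes. Over all genes tested the share was 17.5%, and the difference between the groups was not tested. Shares vary with level: 26.4% of genes with a mean of at least 100 CPM differed, against 6.16% under 1 CPM. All macrophage lineage factors lay above 1 CPM, and most progenitor factors lay below it. The 8 progenitor factors summed to between 197 and 215 CPM in the wild-type libraries against between 190 and 197 CPM in Scd2-m/-m libraries. The ranges touched, and most of each sum came from *Lmo2*. Without *Lmo2* the others summed to between 19.1 and 22.6 CPM against between 15.7 and 17.9 CPM, which did not overlap. Most of each of those sums came from *Tal1*, given above, and *Meis1* had a mean of 4.35 CPM against 4.32 CPM. *Myb*, *Gata2*, *Erg*, *Hoxa7* and *Hoxa9*, each below 1 CPM, had higher means in Scd2-m/-m BMDMs. The plot of log2 fold changes by role shows both groups beside the rest.

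**Figure D3:**
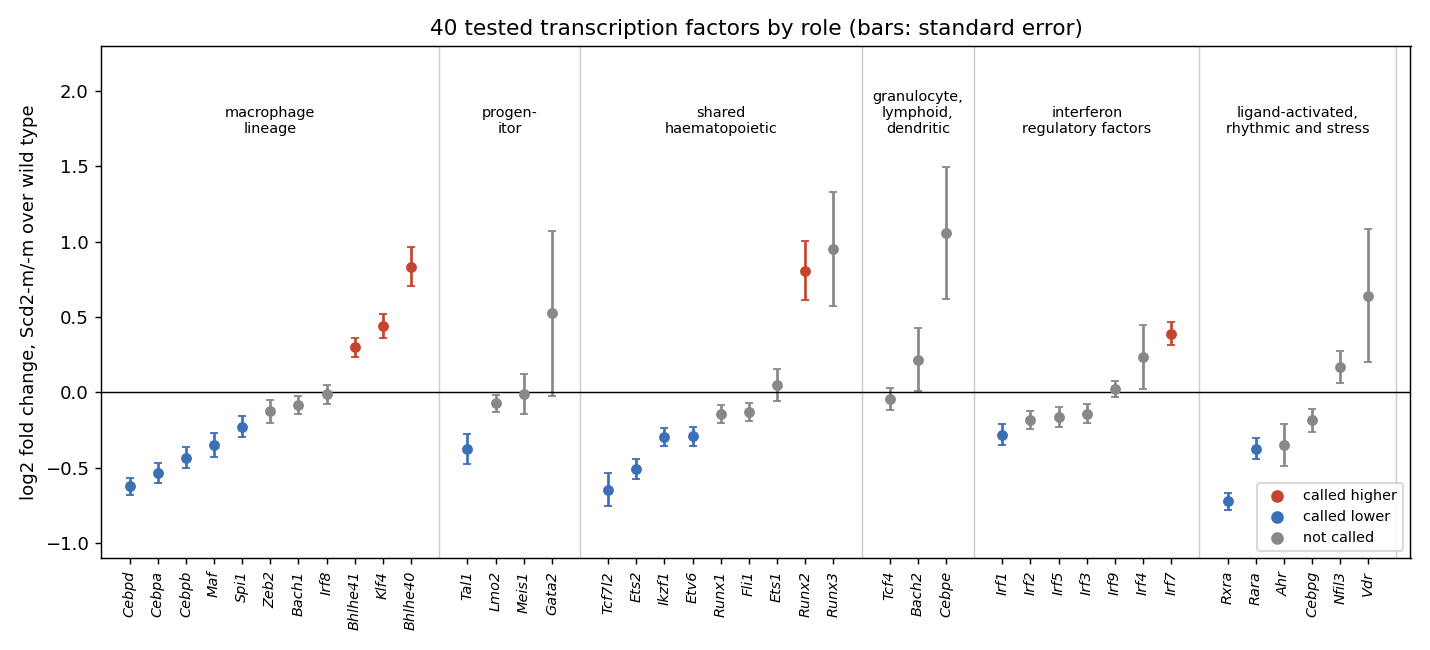
Log2 fold change (Scd2-m/-m over wild type) of the 40 tested members by role, with bars of 1 standard error; blue fell, red rose and grey did not pass the test. Macrophage lineage values ran from −0.62 for *Cebpd* to 0.83 for *Bhlhe40*, and among the progenitor factors *Tal1* is the coloured point.

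Of the 9 factors shared by several blood lineages, 4 fell, 1 rose and 4 did not pass the test. The Runt-domain genes encode DNA-binding partners of CBF-beta, and each is transcribed from a distal and a proximal promoter, which the counts do not separate. *Runx1*, the main member in myeloid cells, had 141, 148 and 153 CPM in wild-type against 127, 132 and 141 CPM in Scd2-m/-m libraries and did not pass the test (log2 fold change −0.14, standard error 0.061, edgeR FDR = 0.124). *Runx2*, known for bone formation and dendritic cells, had 3.81, 2.62 and 2.12 CPM against 5.82, 4.32 and 4.83 CPM and rose (log2 fold change 0.81, standard error 0.20, edgeR FDR = 0.0120). *Runx3*, known from lymphoid cells, had 0.624, 0.325 and 0.275 CPM against 1.06, 0.616 and 0.705 CPM. The *Runx3* libraries overlapped and the gene did not pass the test (log2 fold change 0.95, standard error 0.38, edgeR FDR = 0.103). For *Runx2* the call was lost without wild-type replicate 2 (0.75, edgeR FDR = 0.0657) and without Scd2-m/-m replicate 1 (0.68, edgeR FDR = 0.0503), and *Runx3* passed without wild-type replicate 1 (1.40, edgeR FDR = 0.0315).

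Promoter windows of RefSeq genes (GRCm38.p6, 250 bases before to 50 bases after a start) were found for 35 of the 45 members, 54 windows among 32851. 1731 of all windows (5.27%) held the RUNX box TGTGGTT on either strand, and so did 3 member windows, of *Runx1*, *Runx2* and *Runx3*. Each of the 3 held a pair of boxes 1 base apart, which is a spacing present in 5 of all 32851 windows (0.0152%), the other two being windows of *Gm16225* and *Olfr24*. The stretches are shown because they are what the Runt-domain genes share at their starts, with the boxes in capitals as AACCACA, the reverse complement, read 5′ to 3′ on the gene's strand. The *Runx2* window has 3 boxes in all, of which the pair is shown. The *Runx1* stretch is chr16:92826026-92826054 (minus strand), the *Runx2* stretch chr17:44814584-44814612 (minus strand) and the *Runx3* stretch chr4:135120483-135120551 (plus strand).
Runx1: cataaacAACCACAgAACCACAagttggg
Runx2: cacaaacAACCACAgAACCACAagtgcgg
Runx3: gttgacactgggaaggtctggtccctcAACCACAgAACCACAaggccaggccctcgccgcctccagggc
The pairs lie just past the start in *Runx1* and *Runx2*, where the last box begins 36 and 31 bases from it, and before it in *Runx3*, where the first box begins at −135. The spacing was looked for after the sequences were seen, and a match is a description of the letters, not of binding.

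*Ikzf1*, the zinc finger factor Ikaros, had 147, 154 and 149 CPM in wild-type against 117, 123 and 126 CPM in Scd2-m/-m libraries and fell (log2 fold change −0.30, standard error 0.057, edgeR FDR = 0.00255). *Tcf7l2* (ENSMUSG00000024985, chr19:55741820-55933654, plus strand), the DNA-binding partner of beta-catenin, had 43.6, 40.3 and 31.9 CPM against 27.3, 24.3 and 22.5 CPM and fell (−0.65, standard error 0.11, edgeR FDR = 0.00211). Neither gene's libraries overlapped between the genotypes.

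Of the 4 ETS genes in this group, 2 fell and 2 did not pass the test. *Ets2*, an effector of growth factor signals in macrophages, had 58.9, 54.3 and 54.2 CPM in wild-type against 38.5, 38 and 41.3 CPM in Scd2-m/-m libraries and fell (log2 fold change −0.51, standard error 0.065, edgeR FDR = 0.000114). *Etv6*, an ETS repressor, had 67.5, 71.7 and 71.1 CPM against 59, 53.7 and 59.1 CPM and fell (−0.29, standard error 0.063, edgeR FDR = 0.00549), a call lost without Scd2-m/-m replicate 2 (−0.25, edgeR FDR = 0.0565). *Fli1*, an ETS activator of blood and endothelium, did not pass the test although its libraries did not overlap (232 ± 2.59 CPM in wild-type against 212 ± 9.67 CPM in Scd2-m/-m BMDMs, SD, n = 3, edgeR FDR = 0.143). *Ets1*, known from lymphocytes, overlapped (6.31 ± 0.409 CPM and 6.52 ± 0.0388 CPM, SD, n = 3, edgeR FDR = 0.805).

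Of the granulocyte, lymphoid and dendritic factors 3 were tested and 0 passed edgeR's test, with 1 at an unadjusted p under 0.05. *Cebpe*, the C/EBP of late granulocytes, had 21, 6 and 12 counts in wild-type against 41, 24 and 26 counts in Scd2-m/-m libraries. All its Scd2-m/-m libraries were above the wild-type libraries, at a log2 fold change of 1.06 (standard error 0.44, unadjusted p = 0.0304, edgeR FDR = 0.119). *Cebpe* passed without wild-type replicate 1 (1.57, edgeR FDR = 0.0448) and in limma-voom with quality weights (1.39, FDR = 0.0195). *Gfi1*, the granulocyte repressor, had between 0 and 8 counts per library and was not tested. *Bach2*, a lymphoid repressor, and *Tcf4*, the E protein of plasmacytoid dendritic cells, overlapped between the genotypes (edgeR FDR = 0.524 and 0.753).

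Of the 7 interferon regulatory factors outside the macrophage lineage group, 1 rose, 1 fell and 5 did not pass the test. *Irf7* (ENSMUSG00000025498, chr7:141262706-141266481, minus strand), the interferon-induced amplifier of type I interferon, had 236, 202 and 248 CPM in wild-type against 316, 291 and 291 CPM in Scd2-m/-m libraries. *Irf1*, an activator induced by interferon gamma, had 101, 100 and 117 CPM against 84.1, 91.1 and 87.1 CPM. Each separated the genotypes completely, in opposite directions. *Irf7* rose (log2 fold change 0.39, standard error 0.076, edgeR FDR = 0.00267), and *Irf1* fell (−0.28, standard error 0.070, edgeR FDR = 0.0135), a call lost without wild-type replicate 3 (−0.20, edgeR FDR = 0.0592).

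*Irf2*, an antagonist of *Irf1*, *Irf3*, which starts the type I interferon response, and *Irf5*, a driver of inflammatory cytokines, were lower in every Scd2-m/-m library than in any wild-type library without passing the edgeR test. Their log2 fold changes were −0.18, −0.14 and −0.16 (edgeR FDR = 0.0562, 0.148 and 0.111) with all 6 libraries. *Irf2* passed without Scd2-m/-m replicate 1 (−0.23, edgeR FDR = 0.0240), with the replicate block (edgeR FDR = 0.0227), in DESeq2 (0.0455) and in limma-voom with quality weights (0.0077). *Irf5* passed with the replicate block (edgeR FDR = 0.0426) and with quality weights (0.0305), and *Irf3* with quality weights (0.0251). *Irf5* shares 14.1% of its exonic length with *Tnpo3* on the opposite strand, which did not pass the test (log2 fold change 0.0232). *Irf4*, a factor of alternative activation and lymphocytes, and *Irf9*, the DNA-binding part of the interferon-activated complex ISGF3, overlapped (log2 fold changes 0.24 and 0.0228, edgeR FDR = 0.513 and 0.826). *Irf9* had between 84.7 and 86.8 CPM in the wild-type libraries against between 85.5 and 88.8 CPM in Scd2-m/-m libraries.

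*Rxra* and *Rara*, the retinoid receptors among the members, fell. *Rxra* (ENSMUSG00000015846, chr2:27676440-27762957, plus strand), the shared dimer partner of the retinoic acid, vitamin D and liver X receptors, had 113, 114 and 116 CPM in wild-type against 71.2, 70.5 and 66.5 CPM in Scd2-m/-m libraries. *Rara* (ENSMUSG00000037992, chr11:98927818-98974942, plus strand), a retinoic acid receptor, had 51.2, 54.9 and 56.2 CPM against 45, 39 and 41.4 CPM. *Rxra* fell to 60.7% of the wild-type mean (log2 fold change −0.72, standard error 0.057, edgeR FDR = 1.94e-06), the lowest log2 fold change of the 40 tested members, and *Rara* fell to 77.2% (−0.37, standard error 0.070, edgeR FDR = 0.00215). The spread between replicates of *Rxra* was 1.39 CPM in wild-type against 2.52 CPM in Scd2-m/-m BMDMs (SD, n = 3), against a difference of means from 114 to 69.4 CPM.

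*Vdr*, the vitamin D receptor, had 26, 11 and 11 counts in wild-type against 28, 36 and 19 counts in Scd2-m/-m libraries, which overlapped (log2 fold change 0.64, standard error 0.44, edgeR FDR = 0.360). *Ahr*, the aryl hydrocarbon receptor, had 7.98, 11.2 and 11.1 CPM against 6.79, 8.43 and 8.56 CPM and did not pass the test (−0.35, standard error 0.14, edgeR FDR = 0.104). It passed without wild-type replicate 1 (−0.50, edgeR FDR = 0.0110), with no filter on low counts (edgeR FDR = 0.0197), with the replicate block (0.0293) and in limma-voom with quality weights (0.0256). *Nfil3*, a leucine zipper repressor tied to the circadian clock, overlapped with 8.62 ± 0.613 CPM in wild-type against 9.7 ± 0.905 CPM in Scd2-m/-m BMDMs (SD, n = 3, edgeR FDR = 0.302), and *Cebpg* had an edgeR FDR of 0.112.

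The promoter windows of a member that fell and a member that rose are shown with the half-site AGGTCA, which retinoid receptors read in repeats, and the E-box CACGTG, which BHLHE40 and BHLHE41 bind. The *Rxra* stretch, chr2:27709178-27709276 (plus strand), belongs to a start inside the gene and has 2 half-sites in capitals, the former on the opposite strand. The *Bhlhe41* stretch, chr6:145865541-145865600 (minus strand), has its E-box in capitals, which begins at −153 from the start.
Rxra: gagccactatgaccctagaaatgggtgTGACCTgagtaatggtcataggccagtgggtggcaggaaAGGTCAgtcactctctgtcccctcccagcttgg
Bhlhe41: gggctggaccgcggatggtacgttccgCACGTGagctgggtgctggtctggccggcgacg
AGGTCA stood in 16.3% of all windows and in 6 of the 54 member windows, and CACGTG in 7.15% and in 5. The other motifs searched on both strands were GAGGAAGT, a PU.1 box (3.20% of all windows, 0 member windows), TTGCNNAA, a C/EBP half-site pair (10.8%, 7 member windows), GAAANNGAAA, an interferon-stimulated response element (3.44%, 2 member windows, of *Etv6* and *Irf2*), and TGACGTCA, a cAMP response element (1.79%, 0 member windows). No match says only that these letters are not in a window.

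Partners and inhibitors of the members were read from a list of 29 genes, of which 27 were tested, 2 rose and 6 fell. That was 29.6% of those tested, against 17.5% of all genes tested, with a median log2 fold change of −0.11. *Ahrr*, the repressor that competes with the aryl hydrocarbon receptor, had 27.9, 32.1 and 34.3 CPM in wild-type against 12.3, 13.9 and 14.2 CPM in Scd2-m/-m libraries and fell (−1.22, standard error 0.090, edgeR FDR = 1.04e-06). *Tcf12*, an E protein that pairs with TAL1, had 72.8, 69.8 and 68.9 CPM against 88.6, 87 and 92.9 CPM and rose (0.34, standard error 0.058, edgeR FDR = 0.00105). The genotypes did not overlap in either gene.

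Of 13 genes that macrophage factors are known to control, all tested, 7 fell and 2 rose, with a median log2 fold change of −0.27. All 13 had a mean of at least 100 CPM. Among all 1977 genes tested at that level, 14.9% fell and 11.5% rose, with a median of −0.0312. *Lyz2*, 1 of the 7 that fell, is given above and is the gene whose promoter drives the Cre. Whether the Cre has a part in its fall was not tested. *C1qa*, a subunit of complement C1q, had 895, 966 and 1040 CPM in wild-type against 661, 714 and 728 CPM in Scd2-m/-m libraries (−0.47, edgeR FDR = 0.000495). *Csf1r*, the receptor for macrophage colony-stimulating factor and a PU.1 target, had 7310, 7040 and 6740 CPM against 5480, 5410 and 5340 CPM (−0.38, edgeR FDR = 0.00158). Both fell without overlap.

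Of 12 genes of immature myeloid cells that the progenitor factors are known to control, 9 were tested. In edgeR's test 3 rose and 0 fell, with a median log2 fold change of 0.95 over the 9. Most of the 9 had a mean under 1 CPM. Among all 2969 genes tested at that level, 5.39% rose and 0.775% fell, with a median of 0.1008. *Prtn3*, a serine protease of promyelocytes, had 0, 0.260 and 0.0983 CPM in wild-type against 1.07, 0.756 and 1.15 CPM in Scd2-m/-m libraries (3.07, standard error 0.59, edgeR FDR = 0.00324). *Flt3*, a cytokine receptor of progenitors, had 0.161, 0.0433 and 0.197 CPM against 0.502, 0.477 and 0.516 CPM (1.86, standard error 0.47, edgeR FDR = 0.0147), and *Mpo*, the granule enzyme myeloperoxidase, had a mean of 0.544 CPM in wild-type against 1.05 CPM in Scd2-m/-m BMDMs (0.95, edgeR FDR = 0.0394). These 3 genes rose with no overlap. The progenitor factors themselves had a median of −0.0406 over the 4 tested and of 0.49 over all 8 with no filter on low counts, and the difference between the lists was not tested.

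**Figure D4:**
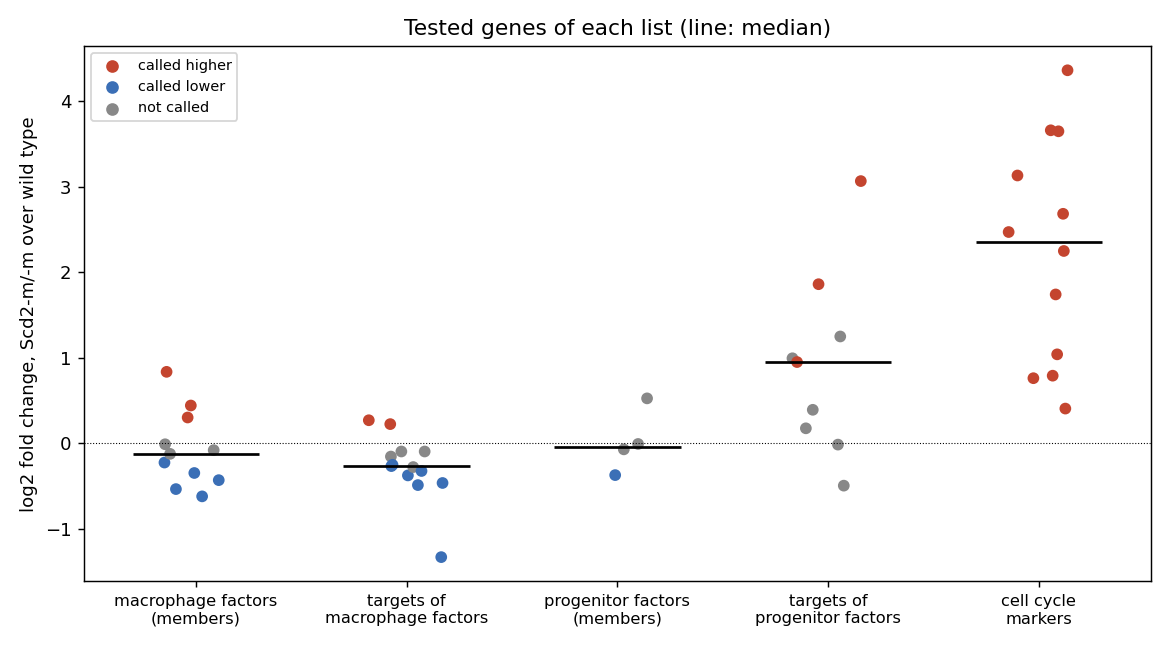
Log2 fold change (Scd2-m/-m over wild type) of each tested gene in 5 lists, with a line at the median; red rose, blue fell and grey did not pass the test. The medians were −0.12 for macrophage factors, −0.27 for their targets, −0.0406 for the 4 tested progenitor factors, 0.95 for their targets and 2.36 for cell cycle markers, and points are spread sideways only to be seen.

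Targets of the ligand-activated factors were mixed, with 8 of 12 tested, 2 higher and 1 lower, 37.5% of those tested. *Abcg1*, a cholesterol transporter that liver X receptors with RXR switch on, had 158, 173 and 179 CPM in wild-type against 307, 276 and 255 CPM in Scd2-m/-m libraries and rose (0.72, standard error 0.075, edgeR FDR = 2.02e-05), while *Rxra* fell. *Abca1*, the gene of highest level on the same list, overlapped, with a mean of 751 CPM in wild-type against 723 CPM in Scd2-m/-m BMDMs (−0.0544, edgeR FDR = 0.714). *Dhrs3*, a retinaldehyde reductase, rose (0.26, edgeR FDR = 0.0332) and *Gclm*, a subunit of the enzyme of glutathione synthesis, fell (−0.58, edgeR FDR = 0.0391). Targets of the interferon regulatory factors, 12 of 12 tested, had 11 values above 0, where 50.7% of all genes tested lay above 0. Of these, 2 passed the test, 16.7% of the list, a share near the 17.5% of all genes tested. *Ifi44* had 13.2, 10.4 and 14.9 CPM against 24, 21.6 and 26.4 CPM (0.90, edgeR FDR = 0.000261) and *Gbp2*, a GTPase induced by interferon gamma, rose with 0.33 (edgeR FDR = 0.0226). The median over the 12 was 0.21.

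Marker lists of cell types were read beside these groups, where 17.5% of all genes tested passed the test, 9.65% higher and 7.84% lower. Of 10 macrophage markers, 9 of which are also on the list of macrophage factor targets, 5 fell and 1 rose, and their sum was between 38700 and 40000 CPM in the wild-type libraries against between 22600 and 23400 CPM in Scd2-m/-m libraries. *Lyz2*, 1 of the 5 that fell and the gene whose promoter drives the Cre, took 57.1% to 58.1% of the wild-type sums. Without it, the other 9 summed to between 16600 and 16800 CPM against between 13800 and 14300 CPM. All 12 cell cycle markers rose (median log2 fold change 2.36), with a sum between 65.4 and 75.6 CPM in the wild-type libraries against between 180 and 197 CPM in Scd2-m/-m libraries. *Ube2c*, *Ccna2* and *Cenpf* had the smallest p (log2 fold changes 3.65, 3.13 and 4.36, edgeR FDR = 6.84e-09, 8.43e-09 and 1.02e-07). Of 10 stem and progenitor markers 9 were tested and 5 rose, among them *Ly6c2* (0.82, edgeR FDR = 0.00559). Most of the 10 are also on the list of progenitor factor targets, and *Prtn3*, *Flt3* and *Mpo* are risers already given there. The 10 summed to between 208 and 233 CPM in the wild-type libraries against between 248 and 321 CPM in Scd2-m/-m libraries. *Cd48*, which did not pass the test, took at least 50.8% of each sum. The other 9 summed to between 42.5 and 60.5 CPM against between 98.9 and 158 CPM. *Ccr2*, which also rose, took most of the sums without *Cd48*, with a mean of 47.8 CPM in wild-type against 115 CPM in Scd2-m/-m BMDMs. Apart from *Cd48*, *Ccr2* and *Ly6c2*, no gene of the list had a mean above 1.05 CPM in either genotype. Of 10 neutrophil markers 7 were tested, 4 rose, led by *S100a9* (1.65), *Ngp* (1.74) and *Ltf* (1.44), and 1 fell, with overlapping sums between 183 and 191 CPM in the wild-type libraries against between 159 and 191 CPM in Scd2-m/-m libraries. *Csf3r*, the gene that fell, took 86.0% to 88.6% of the wild-type sums, and the other 9 summed to between 21.6 and 25.5 CPM against between 32.5 and 41.9 CPM without overlap. The part of these markers in the members' differences was not tested.

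Markers of other cell types were read the same way. Of 8 B cell markers 5 were tested and 2 rose, *Cd79b* (1.01) and *Cd79a* (1.34), and *Ebf1* and *Pax5* were among those that did not pass the filter. The B cell sums overlapped, between 64.8 and 131 CPM in the wild-type libraries against between 94.7 and 125 CPM in Scd2-m/-m libraries. *Ighm* took at least 80.1% of each, and the others summed to between 12.9 and 14.8 CPM against between 15.7 and 18.1 CPM without overlap. Of 8 dendritic cell markers 7 were tested and 2 rose, *Ccr7* (3.78, standard error 0.63) and *Flt3*, the latter already counted on the progenitor lists above. *Ccr7* had 0, 4 and 3 counts in wild-type against 50, 19 and 45 counts in Scd2-m/-m libraries, under 1 CPM in each. The dendritic cell sums were between 297 and 324 CPM and between 279 and 325 CPM. *Bst2* took at least 98.8% of each of these sums, and the other 7 summed to between 1.31 and 1.91 CPM against between 2.21 and 3.41 CPM. Of 8 T and NK cell markers 1 was tested and 0 passed edgeR's test, and 0 had an unadjusted p under 0.05, with sums between 27.4 and 43.9 CPM and between 34.5 and 37.2 CPM, at least 98.9% of each from *Cd4*, and *Cd3g* and *Ncr1* at or under 3 counts in every library. Of 8 mast cell and basophil markers 2 were tested and 0 passed edgeR's test or had an unadjusted p under 0.05, with sums between 0.607 and 0.906 CPM and between 1.34 and 1.65 CPM and *Mcpt4*, *Fcer1a* and *Tpsb2* at or under 3 counts. Of 10 erythroid and megakaryocyte markers 5 were tested and *Pf4* fell (−0.41), with sums between 54.5 and 63.6 CPM and between 44.3 and 45.4 CPM, of which *Pf4* took at least 88.2%. Without *Pf4* the sums overlapped, between 3.2 and 4.54 CPM and between 3.7 and 5.23 CPM. Of 8 stromal markers 4 were tested and *Pecam1*, which endothelial and some blood cells also express, fell (−1.32), with sums between 3.76 and 4.93 CPM and between 2.84 and 3.51 CPM. *Pecam1* took 51.8% to 65.4% of the wild-type stromal sums. Without it the sums overlapped, between 1.3 and 2.38 CPM and between 1.89 and 2.42 CPM.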

How the data were processed

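Per the study's methods, reads were aligned by STAR against the primary assembly of Ensembl (GRCm38). The authors deposited raw whole-number counts for each gene. Counting tool, version and strand setting were not stated in the sources used here. The submitters' processing notes name edgeR and limma. A second deposited table with the authors' own comparison (log2 fold changes, confidence limits, p-values and log2 CPM) was not used. The count table had 40757 entries, of which 276 repeated a gene and were removed, and totals ran from 46285176 to 57629638 counts per library, so that genes below 1 CPM rest on few counts.

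The counts were fitted on all genes with edgeR 4.0.16 (filterByExpr on genotype, TMM factors between 0.9788 and 1.018, glmQLFit with robust estimation, glmQLFTest) in R 4.3.3, with limma 3.58.1 and statmod 1.5.0. The 14778 genes tested shared 1 Benjamini-Hochberg adjustment, and an FDR below 0.05 was the threshold. CPM are counts over the TMM-scaled library size. Exonic lengths, positions and overlaps came from the GENCODE annotation of GRCm38. Replicates of a genotype differed by more than sampling noise (chi-square of 10.4 to 31.5 per gene). Counts were also simulated for these 14778 genes and 3 libraries against 3, in 10 draws with 200 genes changed in each. The spread of each simulated gene came from the fitted trend over level. The test called 62.9% of genes set to differ by 0.5 on the log2 scale and 99.0% of those set to differ by 2, and 5.15% of calls were false. In the data 2585 genes were called and genes vary around the trend, so these rates may not hold there.

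The members, the role groups and the lists were chosen with earlier results of these data known. By rule, all members are named, with per-library values for the called, macrophage lineage and progenitor members, and of each list of partners, targets and markers the called genes of smallest p, at most 3, besides *Scd2* and *Lyz2*. A listed gene that this rule names is not reported here. Marker genes named as untested or low, *Abca1*, *Ccr2* and the motifs were chosen after values were seen. Alternatives were RLE factors, DESeq2 1.42.0, limma-voom, limma-voom with quality weights, no filter or a stricter filter on low counts, a replicate block, and leaving out each library. Medians over all 8 progenitor members and list sums without their highest gene were added after seeing the data. Halved counts were added after seeing that 60.9% to 64.9% of low counts in each library were even.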

Additional observations from a re-analysis of the deposited data

How the results depend on the processing

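All 18 members that rose or fell also did so with RLE factors (18 called), DESeq2 (19), limma-voom (18), no filter on low counts (20), a filter of 10 counts in every library (18) and halved counts (18), the last chosen after seeing the data. Limma-voom with quality weights called 8 members higher and 21 lower, among them the same 18, and called 4507 of all genes against 2585. Without 1 library, between 4 and 7 members were called higher and between 9 and 14 lower, and all genes called numbered 1490 without wild-type replicate 2 and 1440 without Scd2-m/-m replicate 2. Those leave-outs moved the median log2 fold change between −0.2041 and −0.0593 for macrophage lineage factors and between −0.0907 and −0.0134 for the 4 progenitor factors tested with all libraries, which quality weights put at −0.0809. Choices made after seeing the data turned the sign for progenitor factors, with 0.4892 over all 8 with no filter on low counts, and medians of −0.0545 to 0.1983 over the members tested in each leave-out. Members near 0 changed sign without a library, with ranges of −0.0434 to 0.0403 for *Irf8*, −0.0783 to 0.0456 for *Meis1*, −0.0036 to 0.0844 for *Ets1* and −0.1082 to 0.0259 for *Tcf4*, and *Irf9* was at −0.0004 with quality weights. The cause of these changes was not tested. Replicate numbers are shared between the genotypes in the labels, but deviations of same-numbered libraries correlated at 0.053, −0.0196 and 0.0398, so they were not treated as pairs. With the replicate block, 5 members were called higher and 16 lower, including the same 18, and 2974 of all genes were called. Differences of factors below 1 CPM were not detectable at this depth unless large.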
